A study of Mus musculus with 12 samples.

Results

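Of 32 listed genes of lysosomal glycan and lipid breakdown, 28 were measured in 12 mouse melanoma tumours on an Affymetrix array. The members are hydrolases, their activator proteins, lysosomal membrane proteins and an endolysosomal channel, taken by name, each read from the brightest of its probe sets among 1246 on the array. The array named 909 genes in all. Ids, Hgsnat, Fuca1 and Fuca2 were not analysed here. By substrate, 8 of 10 listed genes act on glycosaminoglycans, 6 of 8 on glycoproteins and 10 of 10 on glycolipids and sphingolipids, and 4 of 4 are the glycogen enzyme Gaa, the membrane proteins Lamp1 and Lamp2 and the channel Mcoln3.

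The tumours grew from 1 of 2 syngeneic mouse melanoma lines in hosts with galectin-3 (wild-type, WT) or in hosts without it (Gal3 -/-, written KO here). The sample labels call the line Tm1N3 galectin-3 expressing and the line Tm1G3 galectin-3 silenced. The 4 groups of 3 arrays were thus Tm1N3 in WT hosts, Tm1G3 in WT hosts, Tm1N3 in KO hosts and Tm1G3 in KO hosts. All of them hold tumour cells of this melanoma together with host cells. The design text describes a line with silenced galectin-3 that received a galectin-3 coding plasmid, and it does not say which of the line names carries that plasmid. The plasmid's promoter, whether each line was 1 clone, and the age and strain of the hosts are not given in the sources used here. The labels also do not say that each replicate was a separate animal, so the p-values speak only to the spread among these 12 samples, part of which may be technical.

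Lysosomes take glycans and glycolipids apart mostly from the outer end, 1 sugar, sulfate or acyl group at a time. Most of these enzymes thus make the substrate of the next, and the loss of 1 can store what it should have cleaved. Heparan, dermatan and keratan sulfate need exoglycosidases and sulfatases in turn. Sphingolipids also need small activator proteins that present the lipid to the enzyme. Many of these genes share a promoter element, called CLEAR, whose core is the E-box CACGTG and which the transcription factor TFEB and its relative MITF, the master regulator of the melanocyte lineage, can bind.

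The promoter sequences are shown to mark where the core of this element stands among the members. RefSeq windows from 250 bases before to 50 bases after the annotated start (GRCm38.p6) were matched by symbol for 25 of the 28 measured members; Aga, Asah1 and Galns are the others. CACGTG, which reads the same on both strands, stood in a window of 8 of the 25 members (32.0%), against 8.09% of all 27025 genes in the table. CACGTGA, the longer form that contains this core, was searched on both strands and also stood in 8 of 25 members, against 4.29% of all genes. The 8 stretches below give the match nearest to the gene start in each, 5′ to 3′ on the gene's strand, with the core in capitals and 10 bases on either side.
Lamp1: gtgaccacatCACGTGcggaacggag
Glb1: gcttctgagtCACGTGgcctacagag
Sgsh: gcctgccgtgCACGTGaccgtgggga
Naglu: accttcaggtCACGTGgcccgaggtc
Arsa: aactcagtgtCACGTGttgtctgctc
Ctsa: tgcagatgctCACGTGaccagagcta
Gaa: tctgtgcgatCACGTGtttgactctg
Gla: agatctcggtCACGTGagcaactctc
Their positions are chr8:13159136-13159161, plus strand, for Lamp1, chr9:114401020-114401045, plus strand, for Glb1, chr11:119355524-119355549, minus strand, for Sgsh, chr11:101070011-101070036, plus strand, for Naglu, chr15:89477425-89477450, minus strand, for Arsa, chr2:164833768-164833793, plus strand, for Ctsa, chr11:119267813-119267838, plus strand, for Gaa, and chrX:134601184-134601209, minus strand, for Gla.

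The 8 genes held 13 matches, of which 10 began within 100 bases of the start. Lamp1, the main glycoprotein of the lysosomal membrane, held 4, and Ctsa and Gla held 2 each. The whole windows of Lamp1 (chr8:13158911-13159210, plus strand), of Mcoln3 (chr3:146121541-146121840, plus strand) and of Galc (chr12:98259410-98259709, minus strand) follow, since Mcoln3 and Galc had the largest line differences that passed the test and Lamp1 had one of the smallest differences.
Lamp1: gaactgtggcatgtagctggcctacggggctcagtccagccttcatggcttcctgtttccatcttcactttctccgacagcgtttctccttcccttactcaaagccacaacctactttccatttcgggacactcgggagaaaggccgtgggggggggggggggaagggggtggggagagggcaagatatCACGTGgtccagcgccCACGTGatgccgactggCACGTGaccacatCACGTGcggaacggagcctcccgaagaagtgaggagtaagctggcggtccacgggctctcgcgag
Mcoln3: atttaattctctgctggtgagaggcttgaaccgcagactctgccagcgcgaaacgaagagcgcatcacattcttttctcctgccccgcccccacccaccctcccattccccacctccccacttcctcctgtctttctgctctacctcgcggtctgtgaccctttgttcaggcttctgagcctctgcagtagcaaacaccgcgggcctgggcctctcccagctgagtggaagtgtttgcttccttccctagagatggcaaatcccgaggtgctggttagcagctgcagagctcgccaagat
Galc: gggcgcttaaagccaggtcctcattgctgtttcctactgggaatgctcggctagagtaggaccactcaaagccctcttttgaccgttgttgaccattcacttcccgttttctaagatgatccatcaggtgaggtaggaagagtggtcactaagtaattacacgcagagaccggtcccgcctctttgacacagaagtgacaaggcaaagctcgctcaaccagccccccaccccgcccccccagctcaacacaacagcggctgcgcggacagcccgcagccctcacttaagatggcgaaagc
None of the windows of Mcoln3, Galc, Idua, Arsb and Gm2a, the 5 called members with a window, held CACGTG, which says only that these letters are not in these stretches. The core stood in 8 of the 25 members with a window (32.0%) and in 8.09% of all genes. Whether a count of none in 5 departs from either share was not tested. This count depends on the processing: of the 8 carriers, Naglu and Sgsh passed with array weights (limma, adjusted p = 0.0219 and 0.0180), and Naglu also after quantile normalizing the values again (0.0160). The whole windows shown do not stand for the other members. Lamp2 (-0.003), Neu3 (0.025) and Psap (-0.035) had small averaged line differences and no match. The carriers Naglu (0.196), Sgsh (0.205) and Ctsa (-0.241) had larger ones. A match is a description of the sequence and not a sign of binding.

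**Figure D1:**
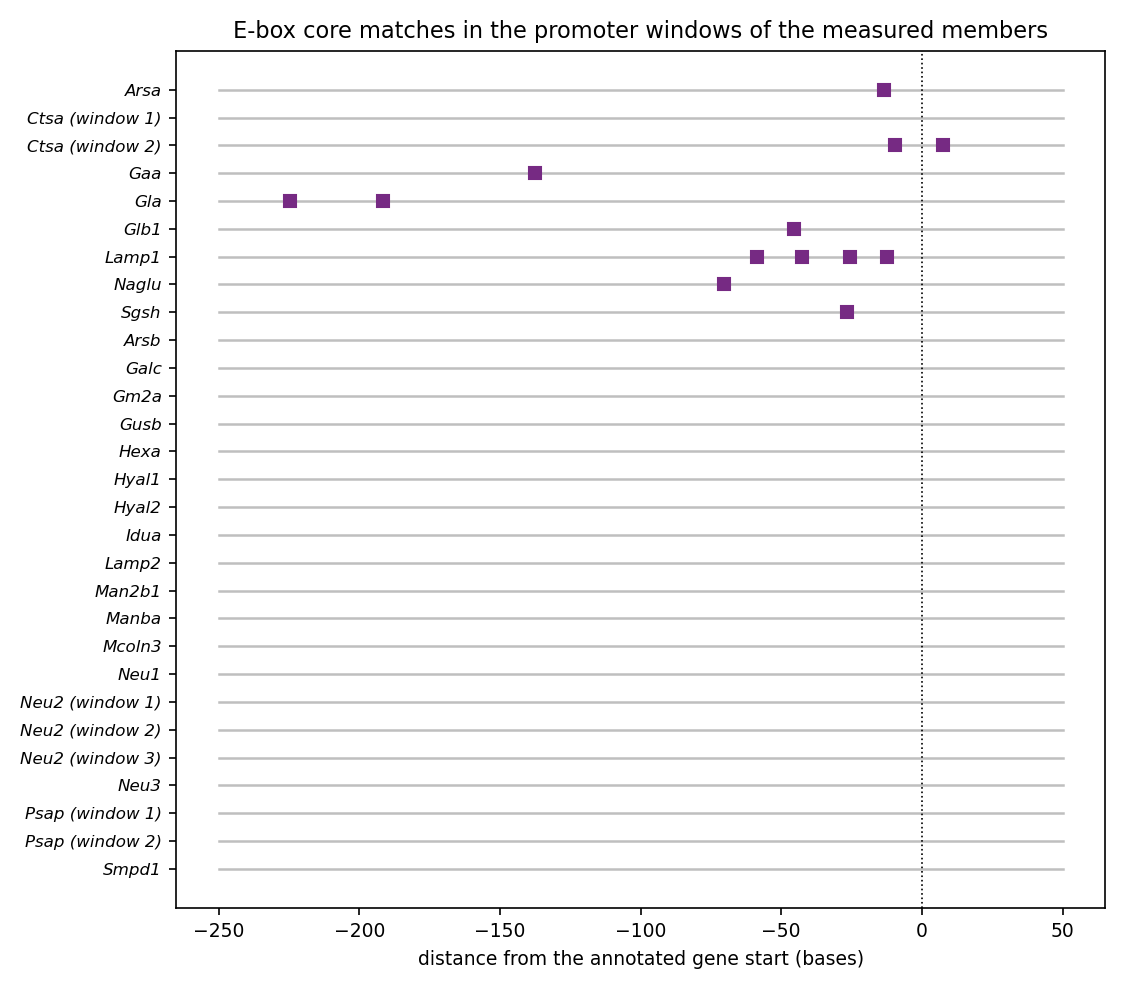
Position of CACGTG in the promoter windows of 25 measured members, 1 line per window, in bases from the annotated gene start (dotted line); squares mark the 13 matches. The 8 genes with a match are at the top, and 10 of the 13 squares lie within 100 bases of the start.

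The values are log2 RMA levels as the authors deposited them. Probe brightness differs between probe sets, so a level is compared only with the same gene's level on other arrays. Lgals3, the gene for galectin-3, averaged 9.97 ± 0.37 and 9.61 ± 0.34 in Tm1N3 and Tm1G3 tumours of WT hosts and 9.86 ± 0.62 and 9.31 ± 0.43 in those of KO hosts (SD, n = 3 each), so it did not separate the lines or the hosts (averaged line difference 0.46, 95% interval from -0.06 to 0.97), and it neither bears out nor contradicts the labels. Of 12 listed melanocyte markers only Kit was measured, so melanoma identity could not be checked on this array. Within groups the pooled SD of the members ran from 0.05 for Hyal2 to 0.38 for Hyal1. The median SE of the line difference in WT hosts was 0.099 over the members and 0.098 over all probe sets. The array of Tm1N3 replicate 2 in WT hosts was the highest of the 12 for 9 of 28 members (8.59% of all probe sets), and Tm1N3 replicate 1 in KO hosts and Tm1G3 replicate 3 in WT hosts were each the lowest for 7 (12.9% and 10.8% of all probe sets).

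Averaged over hosts, the tumour line was accompanied by differences in both directions among the lysosomal genes. Mcoln3 (1.91-fold), Galc (1.47-fold) and Idua (1.35-fold) were higher and Arsb (1.30-fold), Galns (1.26-fold) and Gm2a (1.19-fold) lower in Tm1N3 than in Tm1G3 tumours. These 6 of 28 passed an adjusted p of 0.05 (limma over all 12 arrays, Benjamini-Hochberg over 1246 probe sets), 3 higher and 3 lower, against 4.25% of all probe sets, 1.28% higher and 2.97% lower. The median log2 difference, Tm1N3 minus Tm1G3, was 0.07 over the members and 0.00 over all probe sets, and 17 members were positive and 11 negative (from 17 to 21 positive with 1 array left out). At an unadjusted p under 0.05 there were 15 of 28, against 16.4% of all probe sets. After quantile normalizing the deposited values again, 6 members were higher and 2 lower, with 5 of the 6 kept and Gm2a lost. Leaving out KO_Tm1G3 replicate 2 gave 3 members, and so did leaving out KO_Tm1G3 replicate 3, with Galns, Galc and Mcoln3 called in both. Weighting arrays by their quality gave 10.

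**Figure D2:**
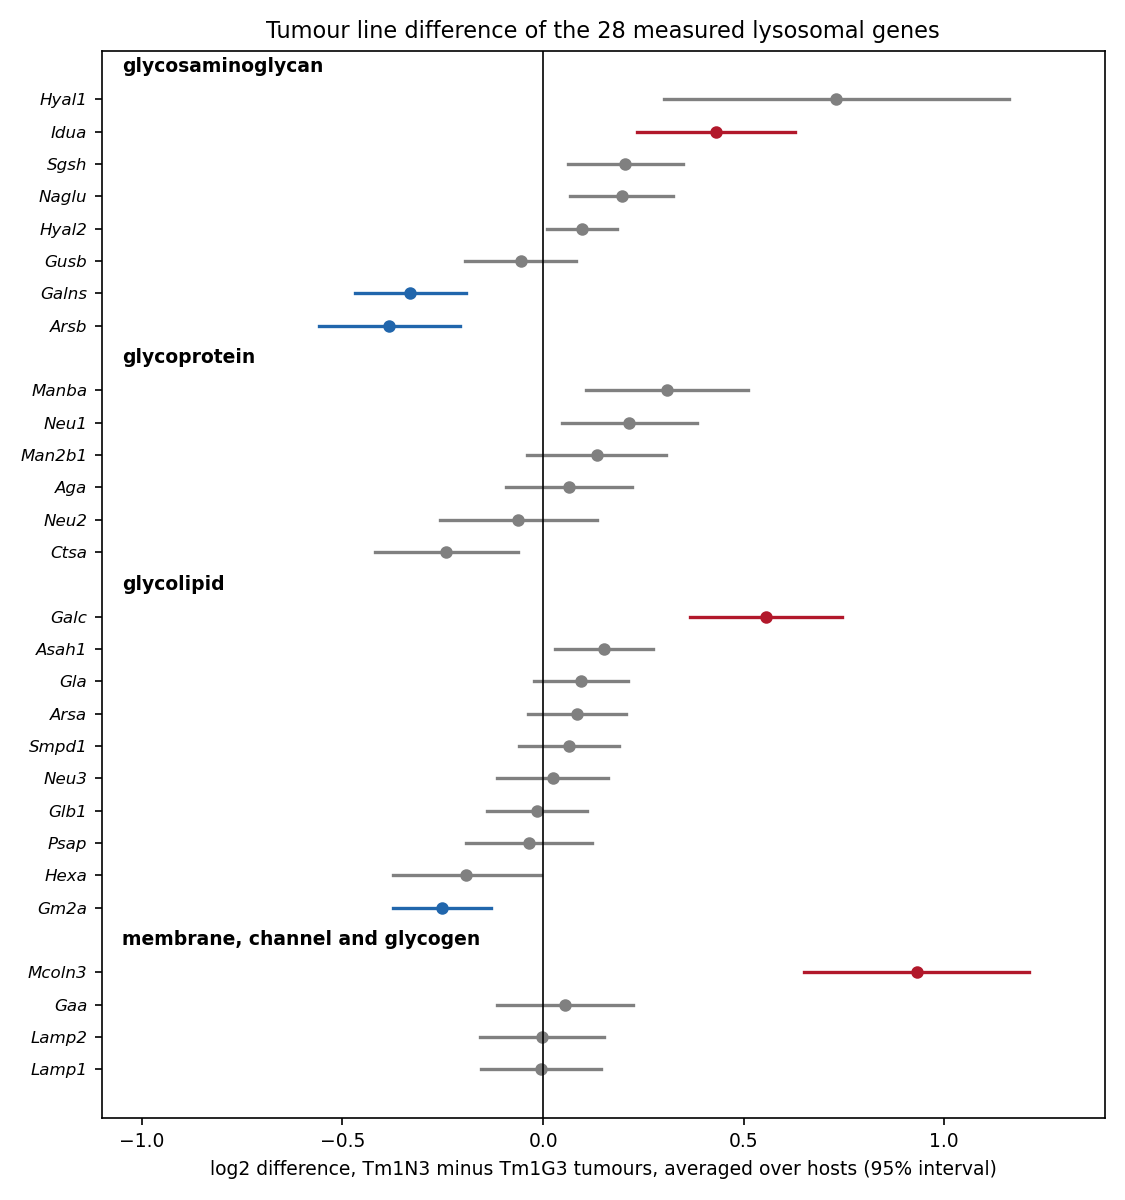
Log2 difference of Tm1N3 minus Tm1G3 tumours averaged over hosts (x axis) for the 28 measured members, grouped by substrate; points are estimates and lines 95% intervals from limma over 12 arrays. Red and blue mark the 3 genes higher and the 3 lower past an adjusted p of 0.05, with Mcoln3 at 0.93 and Arsb at -0.38 at the ends; grey genes did not pass.

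Of the 8 glycosaminoglycan genes, Idua rose, Arsb and Galns fell and 5 did not pass, with a median difference of 0.15. Idua encodes alpha-L-iduronidase, which removes terminal iduronic acid from heparan and dermatan sulfate. It stood at log2 values of 7.84, 7.72 and 7.48 in Tm1N3 tumours of WT hosts and 7.37, 7.73 and 7.46 in those of KO hosts. The Tm1G3 values were 7.35, 7.07 and 7.09 in WT hosts and 7.27, 7.19 and 7.04 in KO hosts. All 6 Tm1N3 arrays thus lay above all 6 Tm1G3 arrays, by a small gap between 7.35 and 7.37. The difference was 0.43 ± 0.09 (SE; limma, Benjamini-Hochberg adjusted p = 0.0216), and it passed in 6 of the 12 fits that left out 1 array, with adjusted p up to 0.0572 (without KO_Tm1G3 replicate 3).

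Arsb, arylsulfatase B, removes the 4-sulfate of N-acetylgalactosamine in dermatan and chondroitin sulfate. Tm1N3 tumours had 9.75, 10.21 and 9.86 in WT hosts and 9.71, 9.95 and 9.77 in KO hosts. Tm1G3 tumours had 10.46, 10.36 and 10.28 in WT hosts and 10.14, 10.17 and 10.14 in KO hosts. Within each host the lines lay apart, but the highest Tm1N3 array, replicate 2 in WT hosts, stood above all 3 Tm1G3 arrays of KO hosts. The difference was -0.38 ± 0.08 (SE; limma, adjusted p = 0.0217) and passed in 9 of 12 fits with 1 array left out. It missed the threshold without WT_Tm1N3 replicate 3, KO_Tm1G3 replicate 2 or KO_Tm1G3 replicate 3 (adjusted p from 0.0533 to 0.0640).

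Galns encodes the sulfatase that takes the 6-sulfate from galactose in keratan sulfate and from N-acetylgalactosamine in chondroitin sulfate. Its Tm1N3 values were 7.64, 7.49 and 7.51 in WT hosts and 7.26, 7.52 and 7.58 in KO hosts. In Tm1G3 tumours they were 7.73, 7.87 and 7.89 in WT hosts and 7.83, 7.90 and 7.77 in KO hosts, so every Tm1G3 array lay above every Tm1N3 array. The fall of 0.33 ± 0.06 (SE; limma, adjusted p = 0.0130) passed in all 12 fits with 1 array left out, with differences from -0.36 to -0.28.

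The heparan sulfate enzymes Naglu, alpha-N-acetylglucosaminidase, and Sgsh, heparan N-sulfatase, had means of 10.13 and 9.93 and of 7.48 and 7.28 in Tm1N3 and Tm1G3 tumours, differences of 0.20 and 0.21 that did not pass (limma, adjusted p = 0.0940 and 0.124). Both passed with array weights (adjusted p = 0.0219 and 0.0180), and Naglu also after quantile normalizing again (0.0160). Hyal1, the lysosomal hyaluronidase, had the largest difference of the group, 0.73 ± 0.19 (SE), and did not pass (adjusted p = 0.0673). Its Tm1N3 values ran from 6.51 to 7.46 with a median of 7.14 and its Tm1G3 values from 5.80 to 6.97 with a median of 6.38, and the lines overlapped. Without WT_Tm1G3 replicate 2, the highest of the Tm1G3 arrays, Hyal1 passed at a difference of 0.88 (adjusted p = 0.0173), without KO_Tm1N3 replicate 1 at 0.82 (0.0492), and with array weights at 0.62 (0.0369). Hyal2, a hyaluronidase that acts mainly at the cell surface, had a difference of 0.10 with a 95% interval from 0.01 to 0.19 (adjusted p = 0.238), and passed at 0.19 after quantile normalizing again (adjusted p = 0.0190). Gusb, beta-glucuronidase, had -0.06 with an interval from -0.19 to 0.08. Mean levels over the 12 arrays were 8.20 for Hyal2 and 11.11 for Gusb.

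Of the 10 glycolipid and sphingolipid genes, Galc rose, Gm2a fell and 8 did not pass, with a median of 0.05. Galc encodes galactosylceramidase, which removes galactose from galactosylceramide and psychosine. It stood at 9.79, 10.07 and 9.74 in Tm1N3 tumours of WT hosts and at 9.69, 10.01 and 9.71 in those of KO hosts. Against these, Tm1G3 tumours had 9.40, 9.32 and 9.06 in WT hosts and 9.35, 9.31 and 9.23 in KO hosts. The lines did not overlap: the lowest Tm1N3 array was at 9.69 and the highest Tm1G3 array at 9.40. The difference of 0.56 ± 0.09 (SE; limma, adjusted p = 0.00444) passed with any 1 array left out, with values from 0.50 to 0.59.

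Gm2a encodes the GM2 activator, the protein that lifts ganglioside GM2 out of the membrane for beta-hexosaminidase A. Its levels were 11.21, 11.27 and 11.14 in Tm1N3 tumours of WT hosts and 11.05, 11.29 and 11.24 in those of KO hosts. Those of Tm1G3 tumours were 11.57, 11.43 and 11.48 in WT hosts and 11.50, 11.34 and 11.37 in KO hosts, again with no overlap between the lines. The difference of -0.25 ± 0.06 (SE; limma, adjusted p = 0.0268) passed in 5 of 12 fits with 1 array left out. It did not pass with the replicate number as a random block within a line (limma, adjusted p = 0.0607), nor after quantile normalizing again (-0.20, adjusted p = 0.235). In the fits without WT_Tm1N3 replicate 1 or 3, WT_Tm1G3 replicate 1 or 3, or any 1 of the KO_Tm1G3 replicates, its adjusted p lay between 0.0527 and 0.0653.

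Hexa, the alpha subunit of that hexosaminidase, had a difference of -0.19 with an interval from -0.38 to -0.01 and did not pass (limma, adjusted p = 0.281). Asah1, acid ceramidase, had 0.15 with an interval from 0.03 to 0.27 (adjusted p = 0.181). The other 6 had intervals that included 0: Gla, alpha-galactosidase A, at 0.09, Arsa, the sulfatide sulfatase, at 0.09, Smpd1, acid sphingomyelinase, at 0.07, Neu3, a sialidase of the plasma membrane that acts on gangliosides, at 0.02, Glb1, beta-galactosidase, at -0.01, and Psap, the precursor of the saposin activators, at -0.04. Among these, the interval was narrowest for Gla, from -0.02 to 0.21. Neu3 was the only member in the lowest 25% of probe sets by mean level, at 3.58, so its small difference rests on a dim signal. The others averaged 10.98 (Hexa), 10.30 (Asah1), 6.51 (Gla), 10.61 (Arsa), 11.63 (Smpd1), 9.46 (Glb1) and 11.93 (Psap) over the 12 arrays.

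None of the 6 glycoprotein genes passed, with a median difference of 0.10, and 3 of the 6 had an unadjusted p under 0.05. Manba, beta-mannosidase, had 0.31 ± 0.09 (SE) and stood at 9.61, 9.76 and 9.47 in Tm1N3 tumours of WT hosts, 9.47, 9.76 and 9.60 in those of KO hosts, 9.56, 9.26 and 9.09 in Tm1G3 tumours of WT hosts and 9.35, 9.39 and 9.17 in those of KO hosts. Tm1G3 replicate 1 in WT hosts lay among the Tm1N3 arrays, and without it Manba passed at 0.37 (limma, adjusted p = 0.0264, against 0.0940 with all arrays). It passed too after quantile normalizing again and with array weights (adjusted p = 0.0364 and 0.0180). Neu1, the lysosomal sialidase, and Ctsa, cathepsin A, which holds Neu1 in an active complex with beta-galactosidase, had differences of opposite sign, 0.22 and -0.24 (adjusted p = 0.171 and 0.146), while Glb1, the third partner of that complex, was at -0.01. Aga, aspartylglucosaminidase, had 0.06, Man2b1, lysosomal alpha-mannosidase, 0.13, and Neu2, a cytosolic sialidase, -0.06, each with an interval that included 0. Mean levels over the 12 arrays were 9.43 for Neu1, 6.62 for Ctsa, 9.21 for Aga, 5.42 for Man2b1 and 5.03 for Neu2.

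Among the 4 remaining members Mcoln3, the cation channel TRPML3 of endosomes and lysosomes, rose and the others did not pass. Mcoln3 stood at 8.38, 8.77 and 8.34 in Tm1N3 tumours of WT hosts and at 8.74, 8.54 and 8.26 in those of KO hosts. In Tm1G3 tumours it was at 7.20, 7.60 and 7.03 in WT hosts and at 8.07, 7.83 and 7.72 in KO hosts. All Tm1N3 arrays lay above all Tm1G3 arrays, and the Tm1G3 arrays of KO hosts lay between the Tm1N3 arrays and the Tm1G3 arrays of WT hosts. The averaged difference of 0.93 ± 0.13 (SE; limma, adjusted p = 0.00301) passed with any 1 array left out, at 0.86 to 1.01. Lamp1 and Lamp2, the main glycoproteins of the lysosomal membrane, had differences of -0.01 (interval from -0.16 to 0.14) and 0.00 (from -0.16 to 0.15). The other probe set of Lamp2 gave 0.05 ± 0.09 (SE). Gaa, the acid alpha-glucosidase of glycogen breakdown, had 0.06 (interval from -0.12 to 0.23). Lamp1, Lamp2 and Gaa averaged 12.40, 10.62 and 10.26 over the 12 arrays.

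**Figure D3:**
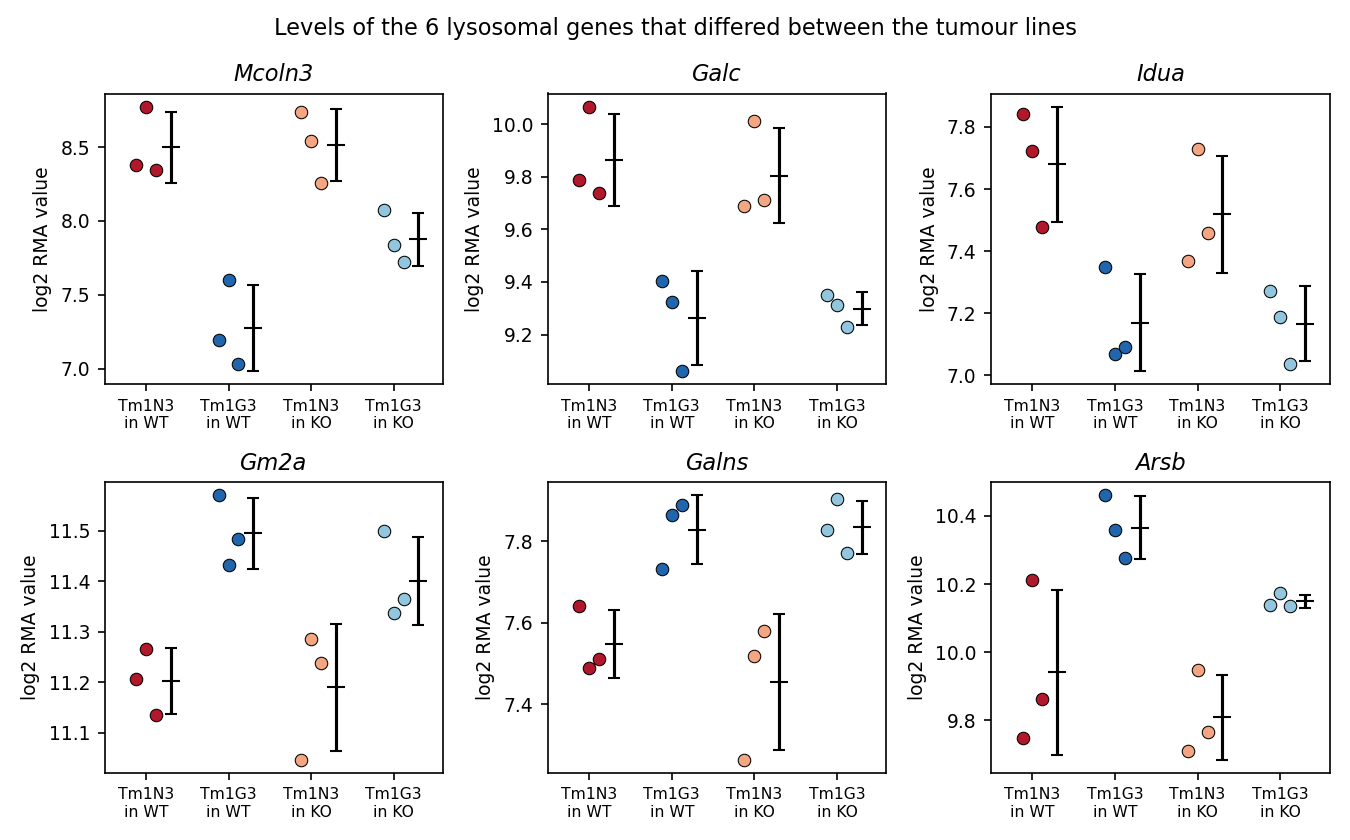
Log2 RMA values of the 6 members called between the tumour lines, 1 panel per gene with its own y axis; points are the 12 arrays in 4 groups, and bars beside them give mean ± SD of 3 arrays. Mcoln3, Galc and Idua are higher in Tm1N3, and Gm2a, Galns and Arsb lower; in KO hosts the Tm1G3 level of Mcoln3 (7.88 ± 0.18) is above its level in WT hosts (7.28 ± 0.29).

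In all, 5 of the 28 members had lines that did not overlap over 6 against 6 arrays, 3 higher and 2 lower, against 3.29% of all probe sets, 1.2% higher and 2.09% lower, and these were 5 of the 6 called genes. The 6 called genes did not all share a substrate. Idua and Arsb, which act on the same dermatan sulfate chain, went in opposite directions, as did Galc and Gm2a among the sphingolipid genes. Arsb and Galns, which both act on chondroitin sulfate, were both lower in Tm1N3 tumours. Of the 4 measured sulfatases, Arsb and Galns fell and Arsa (0.09) and Sgsh (0.21) did not pass.

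Within WT hosts alone, which make galectin-3 themselves, Mcoln3 was the only member called. It was 2.33-fold higher in Tm1N3 than in Tm1G3 tumours, with means of 8.50 ± 0.24 and 7.28 ± 0.29 (SD, n = 3; log2 difference 1.22 ± 0.18, SE; limma, Benjamini-Hochberg adjusted p = 0.0154), and 0.883% of all probe sets were called, 0.401% higher and 0.482% lower. Without WT_Tm1G3 replicate 3 it did not pass (adjusted p = 0.0748), nor when only these 6 arrays were fitted (0.0595). Galc, at 9.86 ± 0.18 against 9.26 ± 0.18, had 0.60 and just missed the threshold (limma, adjusted p = 0.0522). It passed with the replicate number as a random block within a line (limma, adjusted p = 0.0335), a block chosen from these same values. The member count was 2 with this block, 2 without KO_Tm1N3 replicate 2 and 2 without KO_Tm1N3 replicate 3, with Galc the added gene in each, and 2 without WT_Tm1N3 replicate 2, where Arsb was added. At an unadjusted p under 0.05 there were 15 of 28 members, against 13.1% of all probe sets. The 3 arrays of either line did not overlap for 13 members, 9 higher and 4 lower in Tm1N3, against 8.43% and 8.51% of all probe sets. In direction, 22 of 28 were positive, with a median of 0.11, while 50.5% of all probe sets were positive. After quantile normalizing again it was 21 of 28. With 1 array left out it ran from 19 (without WT_Tm1N3 replicate 2 or WT_Tm1G3 replicate 3) to 22 of 28.

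In KO hosts no member was called in limma, against 0.722% of all probe sets, 0.161% higher and 0.562% lower, and 9 of 28 had an unadjusted p under 0.05, against 9.47%. The smallest p values belonged to Galns (-0.38, at 7.45 ± 0.17 against 7.83 ± 0.07), Galc (0.51, at 9.80 ± 0.18 against 9.30 ± 0.06) and Mcoln3 (0.64, at 8.51 ± 0.24 against 7.88 ± 0.18; SD, n = 3 each), with limma adjusted p of 0.0943, 0.0972 and 0.163. For each of these 3 the lines did not overlap. That held for 12 of 28 members, 6 higher and 6 lower in Tm1N3, against 13.7% of all probe sets, 5.78% higher and 7.95% lower. Here 14 members were positive and 14 negative, with a median of -0.01. With array weights Idua, Galc and Mcoln3 passed as higher and Galns as lower. That setting also raised the calls over all probe sets in the averaged comparison, and its share of all probe sets in KO hosts is not given here, so these calls are not read as a result about the members.

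Set side by side, the line differences in WT and KO hosts were 1.22 and 0.64 for Mcoln3, 0.60 and 0.51 for Galc, 0.51 and 0.35 for Idua, -0.43 and -0.34 for Arsb, -0.28 and -0.38 for Galns and -0.29 and -0.21 for Gm2a, all 6 with the same sign in both hosts. Whether the line difference depends on the host was tested by the interaction, the KO difference minus the WT difference. No member passed in limma (smallest adjusted p = 0.996), and 3 of 28 had an unadjusted p under 0.05, against 2.81% of all probe sets. They were Asah1 (-0.36, 95% interval from -0.60 to -0.12), Aga (-0.37, from -0.68 to -0.05) and Mcoln3 (-0.58, from -1.14 to -0.02). Aga was at 9.18, 9.48 and 9.29 in Tm1N3 and 8.96, 9.26 and 8.99 in Tm1G3 tumours of WT hosts, and at 9.21, 9.11 and 9.14 against 9.31, 9.36 and 9.16 in KO hosts, so that Tm1N3 was the higher line in WT hosts and Tm1G3 in KO hosts by their means. The interaction was negative for 23 of 28 members, with a median of -0.11, against 644 of 1246 probe sets and a median of -0.01. It was negative for 21 of 28 after quantile normalizing again or centring each array on its median, and for 20 of 28 with array weights. With 1 array left out the count ran from 19 (without WT_Tm1N3 replicate 2) to 23 of 28.

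**Figure D4:**
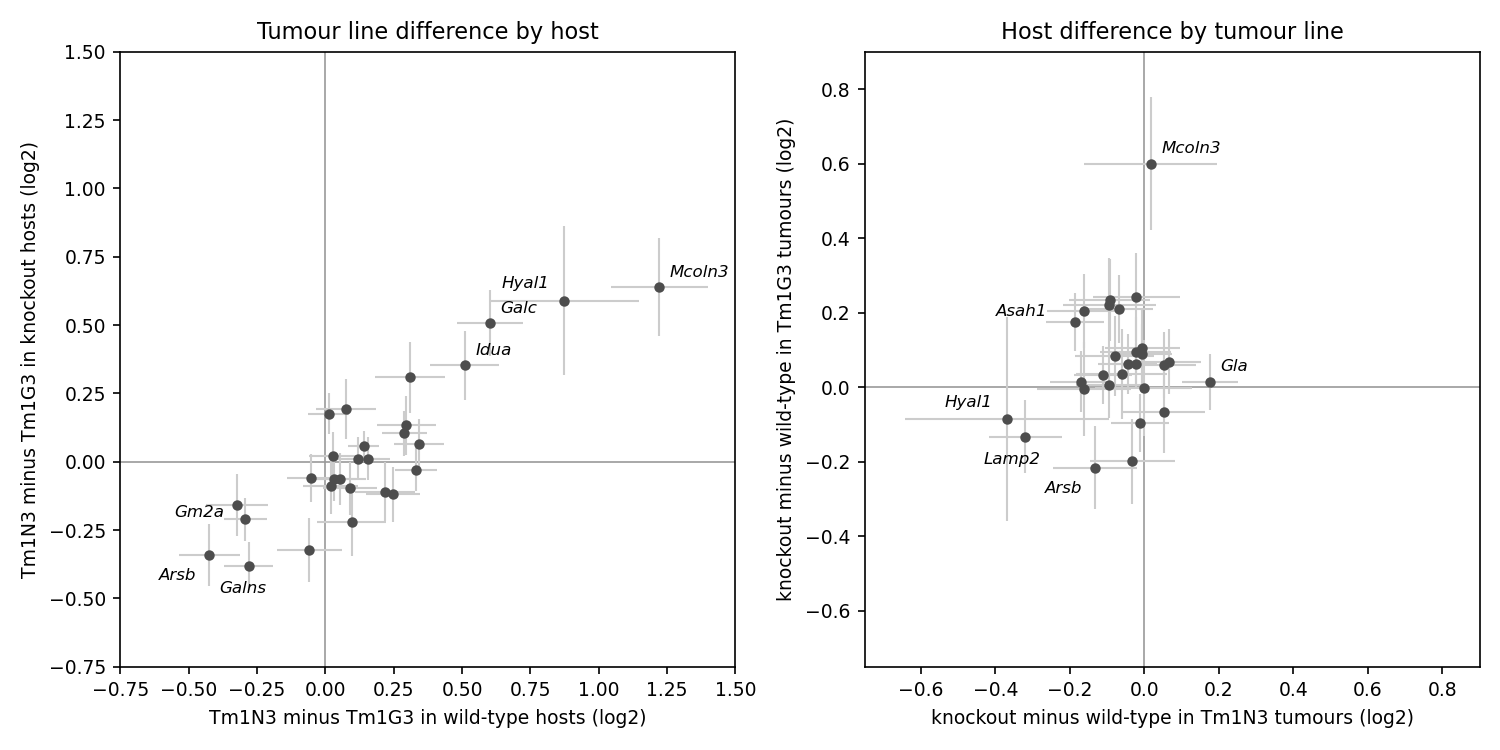
Log2 differences of the 28 members with limma's SE; left, Tm1N3 minus Tm1G3 in WT hosts (x) against KO hosts (y), and right, KO minus WT hosts in Tm1N3 (x) against Tm1G3 tumours (y). On the left the 6 called genes, chosen by their average over hosts, have the same sign in both, with Mcoln3 at 1.22 and 0.64. On the right most points lie near 0 and Mcoln3 stands at 0.60 in Tm1G3 tumours, which did not pass.

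The host comparison, KO minus WT, sets hosts without galectin-3 against hosts with it within 1 tumour line. No member passed in either line or in the average (limma), and 0% of all probe sets did. The member count was 0 under each alternative run too. In Tm1N3 tumours 3 of 28 members had an unadjusted p under 0.05, against 4.33% of all probe sets. Lamp2 was at 10.62, 10.93 and 10.77 in WT hosts and 10.32, 10.45 and 10.59 in KO hosts, so all KO arrays lay below all WT arrays, with a difference of -0.32 ± 0.10 (SE; limma, unadjusted p = 0.00824, adjusted p = 1.00). Its other probe set gave -0.14 ± 0.13 (SE) in the same comparison. Asah1 was at 10.38, 10.58 and 10.44 in WT and 10.29, 10.30 and 10.26 in KO hosts, with a difference of -0.19. Gla was at 6.39, 6.53 and 6.50 in WT and 6.63, 6.61 and 6.71 in KO hosts, with 0.18. In these 3 members, 1 higher and 2 lower, the hosts did not overlap, against 7.62% of all probe sets, 2.01% higher and 5.62% lower.

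In Tm1G3 tumours 3 of 28 had an unadjusted p under 0.05, against 6.18%. Mcoln3 was at 7.20, 7.60 and 7.03 in WT and 8.07, 7.83 and 7.72 in KO hosts, a difference of 0.60 ± 0.18 (SE; limma, unadjusted p = 0.00688, adjusted p = 0.752). Sgsh was at 7.28, 7.21 and 7.04 in WT and 7.43, 7.33 and 7.40 in KO hosts, with 0.21. Asah1 was at 9.98, 10.27 and 10.15 in WT and 10.31, 10.34 and 10.28 in KO hosts, with 0.17. For all 3 the KO arrays lay above the WT arrays, against 6.66% of all probe sets, and 2 other members had all KO arrays below, against 5.78%. Asah1 thus had host differences of -0.19 in Tm1N3 and 0.17 in Tm1G3 tumours, and the test of that difference is the interaction given above, which it did not pass.

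By direction, 23 of 28 members were negative for the host in Tm1N3 tumours (median -0.05; all probe sets 699 of 1246 negative) and 20 of 28 positive in Tm1G3 tumours (median 0.06; all probe sets 586 of 1246 positive). With each array centred on its median, which moved the median of all probe sets by less than 0.1, these became 19 and 22 of 28. With array weights they became 13 and 21, so the direction in Tm1N3 tumours turned. That direction also rested on single arrays: 14 of 28 were negative without WT_Tm1N3 replicate 2 (median -0.001) and 16 of 28 without KO_Tm1N3 replicate 1 (median -0.017). In Tm1G3 tumours between 17 and 23 of 28 stayed positive with 1 array left out. Averaged over lines, 2 of 28 members had an unadjusted p under 0.05, against 6.26% of all probe sets. Lamp2 (-0.23), Mcoln3 (0.31) and Arsb (-0.17) had the smallest p, and none passed (limma, adjusted p = 0.680 for Lamp2). In Tm1G3 tumours Lamp2 was at 10.73, 10.74 and 10.58 in WT and 10.61, 10.45 and 10.60 in KO hosts. Its values over both lines ran from 10.58 to 10.93 in WT and from 10.32 to 10.61 in KO hosts and overlapped.

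Further lysosomal genes were read in the same averaged line comparison. Of the other hydrolase genes reported here Hpse, heparanase, fell by 0.46 ± 0.10 (SE; limma, adjusted p = 0.0235), and the acid lipase gene Lipa, at -0.14, and Hpse2, at -0.05, did not pass. Of 5 membrane and transport genes none passed: Igf2r, the mannose 6-phosphate receptor that delivers hydrolases, was at 0.22, the cystine transporter gene Ctns at 0.09 and the proton pump subunit gene Atp6v0d1 at 0.08. The channels most related to Mcoln3 had negative differences, Mcoln1 at -0.07 (interval from -0.26 to 0.12) and Mcoln2 at -0.20 (from -0.42 to 0.02), where Mcoln3 had 0.93 (from 0.65 to 1.21).

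Macrophages are rich in lysosomes, and in whole tumours fewer cells of a type and less RNA per cell cannot be told apart. None of 6 measured macrophage markers passed between the lines, 5 of 6 were negative (median -0.21), and their summed log2 level ran from 38.25 to 43.50 and from 39.02 to 43.06 in Tm1N3 and Tm1G3 tumours of WT hosts and from 35.81 to 45.08 and from 39.70 to 42.82 in those of KO hosts, so the lines overlapped. Their standard errors were wide, as for Csf1r (-0.37 ± 0.38, SE). The 6 neutrophil markers had a median of -0.21, and their summed level reached 37.12 in Tm1G3 tumours of WT hosts, where in the other 3 groups it stayed at or below 31.82. Ccl5 was the only one of 6 T and NK cell markers to pass, at -0.65, Icam2 of 4 endothelial markers, at -0.40, and Fbln5 of 6 fibroblast genes, at 0.76. Kit, the melanocyte growth factor receptor, passed at -0.99, with Tm1N3 arrays from 5.62 to 6.07 and from 4.91 to 5.76 in WT and KO hosts and Tm1G3 arrays from 6.20 to 6.36 and from 6.62 to 7.22. The summed levels of the endothelial and fibroblast lists overlapped between the lines in both hosts, and that of the T and NK cell list overlapped in WT but not in KO hosts (26.58 to 27.31 in Tm1N3, 27.41 to 28.39 in Tm1G3). That gap leans on Ccl5, which had a line difference of -0.76 in KO hosts. The other genes of this list lay between -0.19 (Klrd1) and 0.06 (Klrk1) there, and Ifng, Klrk1 and Il2ra were among the dimmest 25% of probe sets. The part of these markers in the lysosomal differences was not tested.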

How the data were processed

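RNA of 12 tumours was labelled as cRNA and hybridised to an Affymetrix array. The authors deposited log2 values, for which RMA (background correction, quantile normalization, probe summary) is the only tool named, per the submitters' processing notes; its version, the array's build and the background are not given in the sources used here. Precision is limited by the number of arrays. Of 1246 probe sets 963 were named by RefSeq accession through a GRCm38.p6 gene table; 275 carry a suffix for probes shared between genes, among them those of Sgsh, Neu2, Gla and Smpd1, whose signal may hold related transcripts.

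The deposited values were fitted with limma 3.58.1 in R 4.3.3 (4 group means, 12 arrays, 8 residual and 2.39 prior degrees of freedom), with 7 contrasts and Benjamini-Hochberg adjustment over 1246 probe sets; the fit was tested on simulated data. All measured members are named; array values are given for those called, for the 3 smallest p where none was called, and for Manba, chosen after its values were seen. Members, lists and tests were chosen with earlier results of these data known. Same-numbered arrays of the hosts deviated together (r from 0.184 to 0.752 in Tm1N3, 0.249 to 0.308 in Tm1G3, across probe sets). The number within a line was therefore taken to pair hosts. Between lines r ran from -0.660 to 0.544. The highest, for replicate 2 in WT hosts, was near the 0.566 of replicate 2 between the hosts of Tm1N3 tumours. Within each group the replicate numbers follow the rising order of the numbers in the sample titles, and no label states a pairing. The pairing thus rests on these same values alone, so fits with a replicate block are no independent check of the calls. Alternatives were other scalings, filters, blocks, weights and each array left out. Some genes of the list of other hydrolases are not reported here. The planned search of the sulfatase signature was not run, as no protein sequences were used here.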

Additional observations from a re-analysis of the deposited data

How the results depend on the processing

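Among 559 refits of the averaged line difference of the 28 members, 19 calls were lost, 10 were gained and 22 values changed sign, all 22 of them of 5 uncalled members near 0. The 6 called genes kept their sign. Glb1 turned to 0.037 and Lamp1 to 0.026 with array weights, Psap to 0.008 after quantile normalizing again, and Lamp2 to 0.005 after quantile normalizing again, 0.006 with array weights and 0.024 over its probe sets. With 1 array left out the values ran from -0.047 to 0.019 for Glb1, -0.034 to 0.037 for Lamp1, -0.071 to 0.010 for Psap, -0.043 to 0.036 for Lamp2 and -0.001 to 0.070 for Neu3. The count of members called in the average stayed within 1.5 times 6 (5 with either replicate block, 8 after quantile normalizing again) except with array weights (10), and ran from 3 to 7 with 1 array left out. In WT hosts the count of 1 became 4 after quantile normalizing again, 0 with only the groups compared, 2 without the dimmest 25% of probe sets, 2 with the replicate number as a fixed block, 2 with it as a random block within line and 3 with array weights, and ran from 0 to 2 with 1 array left out. In KO hosts the count of 0 became 1 with the fixed replicate block (Galc) and 4 with array weights. Beyond Galc in WT hosts and Gm2a in the average, the random replicate block within line changed no member call. Over all probe sets, 131 were called in the average with array weights, against 53, so that setting raised calls throughout. The causes were not tested. Centring, a variance trend and averaging probe sets changed no count. No count of members in the host comparisons or the interaction moved from 0. Having 3 arrays a group limits all values; signal over background was not examined, so small differences of dim genes such as Neu3 cannot be weighed.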
